A study of Mus musculus with 9 samples.

Results

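The circadian clock genes described here are Per1, Per2, Per3, Dbp, Tef, Nr1d1, Nr1d2, Arntl, Clock and Bhlhe41, which were matched by symbol in a table of hippocampal RNA counts. All 10 were found among its 57010 genes, and all 10 passed the filter on low counts that left 17967 genes for testing. The study asked what cannabidiol, a non-intoxicating cannabinoid, does in a mouse model of nerve-injury pain with depression. RNA was taken from hippocampal tissue of C57BL/6J mice and sequenced as 9 libraries in 3 groups of 3. In the Sham group a spinal nerve was located and left untied, and the mice then had solvent. In the SNL group the nerve was ligated, and the mice then had solvent. In the CBD group the nerve was ligated and cannabidiol was injected into the peritoneum at 5 mg/kg for 15 days. Age, sex and the hour at which the mice were killed are not in the labels, so each library's own value is given. Nor do the labels tie libraries to animals, and the p-values below therefore describe variation among these samples alone, part of which may be technical.

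The clock of mammalian cells is a loop in which CLOCK and BMAL1, the product of Arntl, bind E-box sequences and switch on the Per, Cry, Nr1d and Dbp genes. PER and CRY proteins then hold CLOCK and BMAL1 back, and the NR1D proteins (REV-ERB alpha and beta) repress Arntl through ROR elements. The levels of these mRNAs therefore depend on the hour of the day in most tissues, the hippocampus included. Per1 can also be raised directly by glucocorticoids and by neuronal activity.

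The promoter sequences of the Period and Tef genes are shown because these genes were lower together in the ligated groups, and that of Bhlhe41 because it carries the same E-box and differed little. RefSeq promoters on build GRCm38.p6 run from 250 bases before a start to 50 after it, and 9 of the 10 genes matched; Per2 has none in the table used. Each line below is written 5′ to 3′ on the gene's own strand, with the E-box CACGTG, the D-box TTATGTAA and the ROR core AGGTCA (here as its reverse complement TGACCT) in capitals.
Per1 (chr11:69098753-69098847, plus strand): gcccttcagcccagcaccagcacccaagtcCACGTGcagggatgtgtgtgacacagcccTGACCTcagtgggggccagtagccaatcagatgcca
Per3 (chr4:151044786-151044900, minus strand): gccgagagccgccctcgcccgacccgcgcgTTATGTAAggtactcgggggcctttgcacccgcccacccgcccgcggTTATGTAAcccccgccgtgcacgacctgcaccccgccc
Tef, first start (chr15:81802516-81802581, plus strand): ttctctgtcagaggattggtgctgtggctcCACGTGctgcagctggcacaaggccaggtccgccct
Tef, second start (chr15:81811246-81811311, plus strand): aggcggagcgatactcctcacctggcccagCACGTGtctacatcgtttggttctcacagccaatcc
Bhlhe41 (chr6:145865538-145865603, minus strand): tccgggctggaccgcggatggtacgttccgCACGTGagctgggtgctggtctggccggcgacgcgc
The E-box of Per1 begins 166 bases before the first of its 2 starts, and the window of the second start holds none. That of Bhlhe41 begins 153 bases before its start. Tef carries one before each of its starts. Per3 has no E-box in this window and has 2 D-boxes, the element bound by DBP and TEF themselves. The E-box occurs in 7.15% of the 32851 promoters of this length, the D-box, searched as TTATGTAA or TTACGTAA, in 1.06% and the ROR core in 16.3%, all on both strands. Among the 9 genes, 3 had an E-box in a window. The ROR core also lies in windows of Nr1d2, Arntl and Clock. The windows of Dbp and Nr1d1 held no match to any motif searched. Neither the cAMP response element, TGACGTCA, found in 1.79% of promoters, nor the full glucocorticoid response element, found in 0.0578%, was matched in any window of the 9 genes. A match is a run of letters and not a shown binding site.

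Libraries held 16972620 to 20470546 expected counts, and a clock gene had between 382 and 7950 of them in a library. Transcripts of regions beside the hippocampus varied between libraries. The summed level of 12 hypothalamic markers was 293, 62.6 and 361 CPM (counts relative to library size) in SNL 1, SNL 2 and CBD 1 and 13.96 to 25.5 CPM in the other 6. Pmch, the melanin-concentrating hormone precursor, was at 200.4, 43.9 and 145.7 CPM in those 3 libraries and at 0.80 CPM or less elsewhere. In SNL 2 this 1 gene made up most of the summed level, at 43.9 of 62.6 CPM. In all 3 comparisons fold changes also followed the GC content of transcripts across 17642 genes, with Spearman correlations of -0.15 for SNL against Sham, -0.44 for CBD against SNL and -0.56 for CBD against Sham. Values adjusted by offsets for GC content and length, an alternative chosen after seeing the data, are therefore given beside the clock genes concerned, and use the longest transcript of a gene unless stated. The offsets were fitted to each library's departures from the mean of all 9 libraries. They therefore also take out group differences that run with GC content or length, and the source of the trend was not tested. In bulk tissue, fewer cells of a type and less RNA per cell cannot be told apart.

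Per kilobase of merged exon, Tef, which encodes a PAR bZIP transcription factor, was the most abundant of the 10 genes in Sham libraries, at 47.8 ± 3.24 CPM per kilobase (mean ± SD, n = 3). Nr1d1 followed at 26.6 ± 3.02, then Dbp at 22.8 ± 1.15, Nr1d2 at 17.3 ± 3.80 and Per1 at 16.5 ± 4.13 CPM per kilobase. Per2 at 7.28 ± 0.99, Bhlhe41 at 7.24 ± 0.84, Per3 at 6.40 ± 0.59 and Clock at 5.56 ± 0.48 CPM per kilobase came next. Arntl was lowest at 3.18 ± 0.29 CPM per kilobase. The libraries of neighbours in this order overlapped for Dbp with Nr1d2, Nr1d2 with Per1, Per2 with Bhlhe41, Bhlhe41 with Per3 and Per3 with Clock, so their order is not resolved. The order also depends on the length used. The longest transcript has 1.837 kilobases for Dbp, 2.721 for Nr1d1 and 5.999 for Per3, beside 2.993, 3.077 and 9.608 of merged exon. Per kilobase of longest transcript, Dbp would come before Nr1d1, and Per3 before Per2, Bhlhe41 and Clock. Lengths come from the GENCODE M21 annotation of the older build GRCm38, while the counts were made on GRCm39.

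SNL was compared with Sham to ask what ligation does under solvent. The Period genes and Tef were lower in SNL, Per1 by the most, and Nr1d2 was higher with overlap. Dbp, Nr1d1, Arntl, Clock and Bhlhe41 differed by 0.17 or less on the log2 scale. With edgeR's quasi-likelihood test and Benjamini-Hochberg adjustment over all 17967 genes, 0 of 10 clock genes passed an adjusted p of 0.05 and 0% of all genes did. At an unadjusted p under 0.05, 4 of 10 were lower, against 7.96% of all genes, and 0 of 10 were higher, against 5.83%. With DESeq2's Wald test, 1 of 10 had an adjusted p under 0.05, against 2.03% of all genes. With limma voom 0 of 10 passed, against 0.00557%. With offsets 3 of 10 (Per1, Per2 and Tef) were lower at an unadjusted p under 0.05, against 6.92%, and 0 of 10 higher, against 6.62%. The median log2 fold change was 0.00 over the 10 genes and 0.01 over all genes.

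Per1 (ENSMUSG00000020893), a repressor of CLOCK and BMAL1 that responds quickly to stimuli, was at 119, 84.4 and 74.9 CPM in Sham 1, 2 and 3. It was at 53.3, 70.7 and 60.3 CPM in SNL 1, 2 and 3. The highest SNL library lay below the lowest Sham library. The log2 fold change was -0.59 (SE 0.18, edgeR unadjusted p = 0.00794, adjusted p = 0.244). Without Sham 1, the highest library, it was -0.37 (edgeR unadjusted p = 0.0376). With GC and length offsets it was -0.46 (edgeR unadjusted p = 0.00237).

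Per2 (ENSMUSG00000055866), the second repressor of the family, was at 48.6, 42.3 and 37.1 CPM in the Sham libraries and at 30.2, 38.0 and 31.1 CPM in the SNL libraries. SNL 2 lay just above Sham 3, so the groups overlapped. The log2 fold change was -0.36 (SE 0.13, edgeR unadjusted p = 0.0167, adjusted p = 0.276). Per3 (ENSMUSG00000028957), a family member whose loss affects rhythms less, was at 67.3, 61.0 and 56.0 CPM in the Sham libraries, and those of SNL had 52.4, 55.1 and 43.7 CPM. All 3 SNL libraries were below all 3 Sham libraries, by a narrow gap between SNL 2 and Sham 3. The log2 fold change was -0.29 (SE 0.12, edgeR unadjusted p = 0.0320, adjusted p = 0.316), and with offsets -0.18 (edgeR unadjusted p = 0.0735).

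Tef (ENSMUSG00000022389), a clock output that binds D-boxes, was at 405, 364 and 359 CPM in the Sham libraries, and those of SNL had 307, 313 and 306 CPM. The SNL libraries lay close to each other and below every Sham library. The log2 fold change was -0.29 (SE 0.09, edgeR unadjusted p = 0.0109, adjusted p = 0.260). DESeq2 gave Tef an adjusted p of 0.0460. Of the 10 genes, 3 (Per1, Per3 and Tef) had every SNL library below every Sham library, against 9.81% of all genes, and 0 of 10 had every SNL library above, against 7.94%.

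Dbp (ENSMUSG00000059824), the other PAR bZIP output and a gene under direct E-box control, was at 70.2, 64.3 and 70.3 CPM in the Sham libraries, and those of SNL had 78.0, 86.9 and 64.8 CPM. Its groups overlapped (log2 fold change 0.17, SE 0.16, edgeR adjusted p = 0.676). Nr1d1 (ENSMUSG00000020889), which encodes REV-ERB alpha, was at 92.5, 75.7 and 77.1 CPM in the Sham libraries, and those of SNL had 78.8, 100.02 and 86.2 CPM, again with overlap. Nr1d2 (ENSMUSG00000021775), which encodes REV-ERB beta, was at 80.1, 83.0 and 117 CPM in the Sham libraries, and those of SNL had 127, 121 and 97.3 CPM. Its log2 fold change was 0.30 (SE 0.16, edgeR unadjusted p = 0.0794), and Sham 3 lay within the SNL range. Without Sham 1 it was 0.20, and without Sham 3 it was 0.50. Over all runs with 1 library left out, the edgeR unadjusted p ran from 0.00359 to 0.251.

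Arntl (ENSMUSG00000055116) was at 26.3, 23.4 and 22.0 CPM in the Sham libraries, and those of SNL had 22.3, 25.8 and 25.2 CPM. Clock (ENSMUSG00000029238), its partner, was at 69.5, 82.5 and 77.1 CPM in the Sham libraries, and those of SNL had 73.4, 79.7 and 72.4 CPM. Bhlhe41 (ENSMUSG00000030256), an E-box repressor also called DEC2, was at 45.3, 45.4 and 55.1 CPM in the Sham libraries, and those of SNL had 49.96, 55.2 and 47.7 CPM. These 3 genes overlapped between the groups, with log2 fold changes of 0.03 (SE 0.14), -0.02 (SE 0.11) and 0.07 (SE 0.11) in that order.

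**Figure D1:**
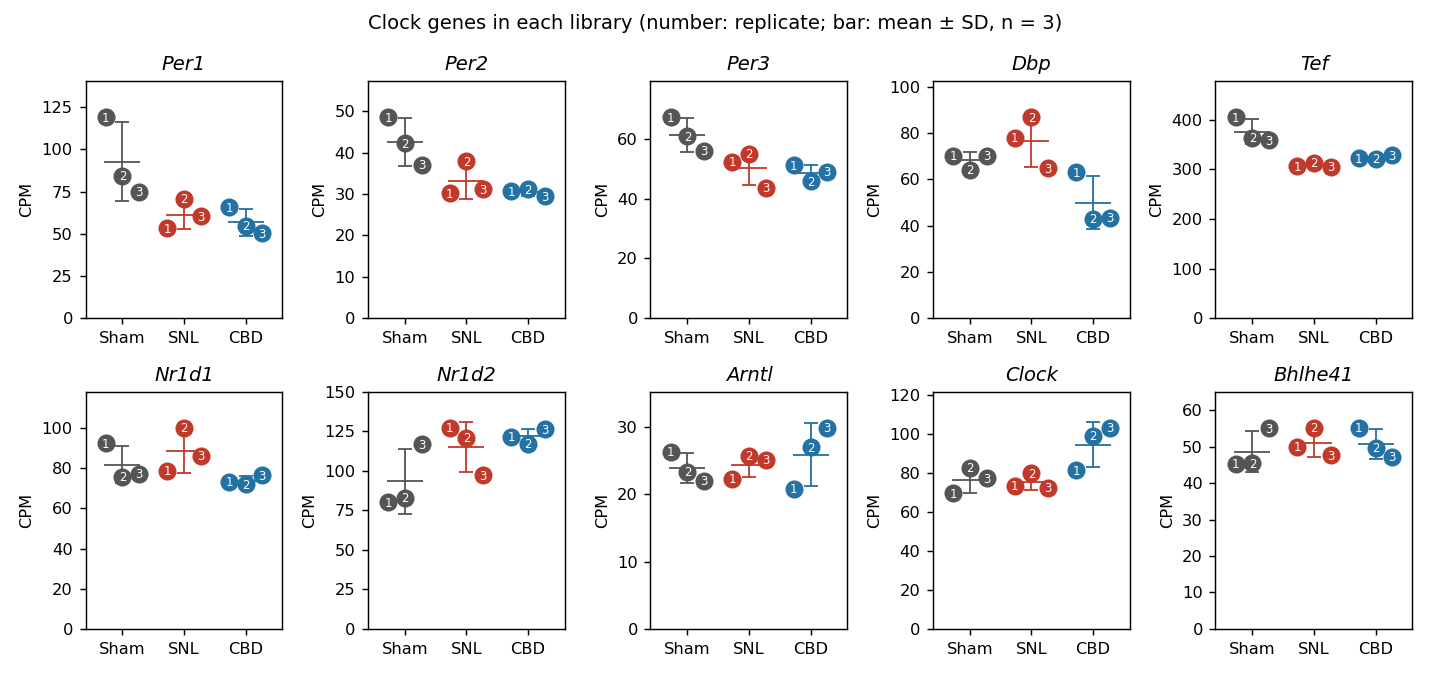
Level of each clock gene in CPM (vertical axis, from 0) in the 9 libraries; each circle is 1 library with its replicate number, and bars give the mean ± SD of 3 libraries in Sham (grey), SNL (red) and CBD (blue). Per1 ran from 119 CPM in Sham 1 to 50.4 CPM in CBD 3, Tef was at 329 CPM or less in all 6 ligated libraries, and Dbp was lowest in CBD 2 and CBD 3.

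CBD was compared with SNL to ask what cannabidiol does in ligated mice. Dbp was lower and Clock higher in CBD, and the Period genes stayed near their SNL levels. With edgeR 0 of 10 clock genes passed the adjusted threshold and 0% of all genes did. At an unadjusted p under 0.05, 1 of 10 was lower, against 7.2% of all genes, and 1 of 10 was higher, against 6.5%. With DESeq2, 1 of 10 passed, against 0.874% of all genes. With limma voom 2 of 10 (Dbp and Clock) passed, against 6.3%. With longest-transcript offsets 1 of 10 (Dbp) was lower at an unadjusted p under 0.05, against 4.77%, and 0 of 10 higher, against 2.49%. The median log2 fold change was -0.03 over the 10 genes and 0.00 over all genes.

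Dbp was at 63.1, 43.0 and 43.5 CPM in CBD 1, 2 and 3, beside 64.8 to 86.9 CPM in SNL. CBD 2 and CBD 3 were far below every other library, and CBD 1 lay just under the lowest SNL library. The log2 fold change was -0.62 (SE 0.16, edgeR unadjusted p = 0.00316, adjusted p = 0.306), and DESeq2 gave an adjusted p of 0.0398. Dbp has a transcript GC content of 61.6%, at the 97.9 percentile of tested genes. With offsets, taken from the longest transcript, its log2 fold change was -0.35 (edgeR unadjusted p = 0.0284), and with offsets from the mean over all transcripts of a gene it was -0.45 (edgeR unadjusted p = 0.0110).

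Clock was at 81.3, 99.0 and 103 CPM in CBD, above the 79.7 CPM of the highest SNL library. CBD 2 and CBD 3 were again the libraries apart, here on the high side, and over all genes they were the closest pair of libraries, with a chi-square per gene of 6.61 beside 16.6 for the next pair. The log2 fold change was 0.33 (SE 0.11, edgeR unadjusted p = 0.0160, adjusted p = 0.312). Clock has a GC content of 40.9%, at the 10.7 percentile of tested genes, and with the 2 kinds of offset its log2 fold change was 0.02 (edgeR unadjusted p = 0.777) and 0.08 (edgeR unadjusted p = 0.404). Its difference between CBD and SNL was thus close to 0 relative to genes of like GC content and length. The offsets also take out group differences that run with GC content or length, so they do not settle whether Clock itself changed.

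Nr1d1 was at 73.2, 71.9 and 76.4 CPM in CBD, all below the lowest SNL library at 78.8 CPM (log2 fold change -0.26, SE 0.12, edgeR unadjusted p = 0.0504). With offsets it was -0.09, and without SNL 2 it was -0.16. Tef was at 323, 322 and 329 CPM in CBD, slightly above all SNL libraries and below all Sham libraries (log2 fold change against SNL 0.07, SE 0.09). Every CBD library lay below every SNL library for 2 of 10 genes, Dbp and Nr1d1, against 10.1% of all genes, and above for 2 of 10, Clock and Tef, against 9.18%.

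The other 6 genes overlapped between CBD and SNL. Per1 was at 65.7, 54.6 and 50.4 CPM in CBD, Per2 at 30.8, 31.2 and 29.5 CPM, and Per3 at 51.2, 45.9 and 49.0 CPM. No CBD library reached the Sham range for any Period gene. Their log2 fold changes against SNL were -0.11 (SE 0.18), -0.12 (SE 0.13) and -0.05 (SE 0.12). Nr1d2 was at 122, 117 and 126 CPM in CBD, Arntl at 20.8, 27.04 and 29.9 CPM, and Bhlhe41 at 55.2, 49.7 and 47.3 CPM. Arntl spread most widely among the CBD libraries, with CBD 1 the lowest of all 9 and CBD 3 the highest.

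**Figure D2:**
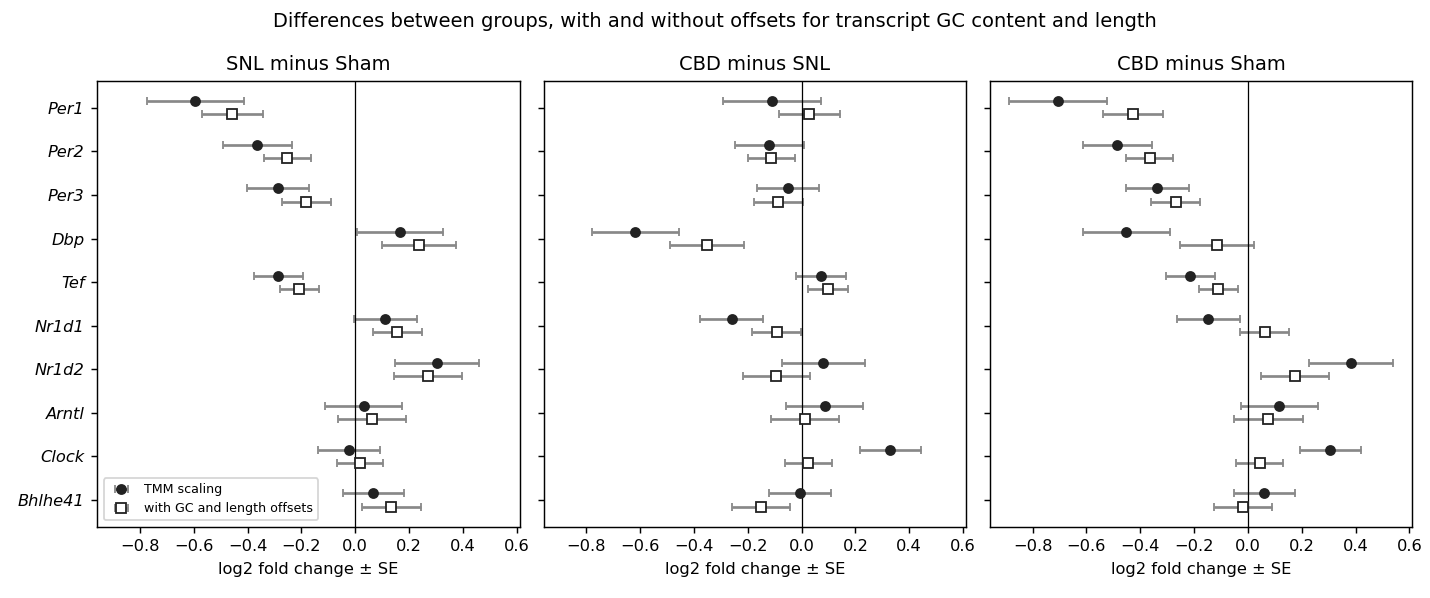
Log2 fold change ± SE (horizontal axis) of each clock gene (vertical axis) in the 3 comparisons, from edgeR with TMM scaling (filled circles) and with the longest-transcript offsets (open squares). The 3 Period genes are left of 0 by both in the comparisons with Sham, while Clock moves from 0.33 to 0.02 in CBD minus SNL and Dbp from -0.45 to -0.12 in CBD minus Sham.

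CBD was also compared with Sham, which asks how treated ligated mice stood beside unligated ones. The same Sham libraries serve here as in the first comparison, so the values are given side by side and not as a second line of evidence. The 3 Period genes, Dbp and Tef were lower in CBD, and Nr1d2 and Clock higher. With edgeR 0 of 10 passed the adjusted threshold and 0% of all genes did. At an unadjusted p under 0.05, 5 of 10 were lower, against 8.87% of all genes, and 2 of 10 were higher, against 7.41%. With DESeq2, 2 of 10 passed, against 2.14% of all genes, and with limma voom 4 of 10 (Per1, Per2, Per3 and Dbp), against 5.85%. The median log2 fold change was -0.18 over the 10 genes and 0.00 over all genes.

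Per1 had a log2 fold change of -0.71 (SE 0.18, edgeR unadjusted p = 0.00285, adjusted p = 0.213), beside -0.59 in SNL. Per2 stood at -0.48 (SE 0.13, edgeR unadjusted p = 0.00339, adjusted p = 0.213), beside -0.36 in SNL. DESeq2 gave adjusted p-values of 0.0252 for Per1 and 0.0440 for Per2. Per3 was at -0.34 (SE 0.12, edgeR unadjusted p = 0.0150, adjusted p = 0.228), beside -0.29 in SNL. With offsets from the longest transcript the 3 values were -0.43, -0.37 and -0.27 (edgeR unadjusted p = 0.00358, 0.00208 and 0.0150), and these were then the clock genes at an unadjusted p under 0.05, 3 of 10 lower against 4.56% of all genes and 0 of 10 higher against 2.91%. The adjusted p-values with offsets were 0.623 or more.

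Dbp had a log2 fold change of -0.45 against Sham (SE 0.16, edgeR unadjusted p = 0.0182, adjusted p = 0.236), and its highest CBD library, at 63.1 CPM, was just under the lowest Sham library at 64.3 CPM. With the 2 kinds of offset it was -0.12 and -0.28 (edgeR unadjusted p = 0.420 and 0.0811). Tef was at -0.21 (SE 0.09, edgeR unadjusted p = 0.0423), and at -0.11 with offsets. Nr1d2 was at 0.38 (SE 0.16, edgeR unadjusted p = 0.0327), with every CBD library above every Sham library, narrowly so for CBD 2 and Sham 3. It was at 0.18 with offsets, at 0.28 without Sham 1 and at 0.58 without Sham 3. Clock was at 0.31 (SE 0.11, edgeR unadjusted p = 0.0227) with overlap at CBD 1, and at 0.04 with offsets. Every CBD library was below every Sham library for 5 of 10 genes, against 11.1% of all genes, and above for 1 of 10, against 10.6%.

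**Figure D3:**
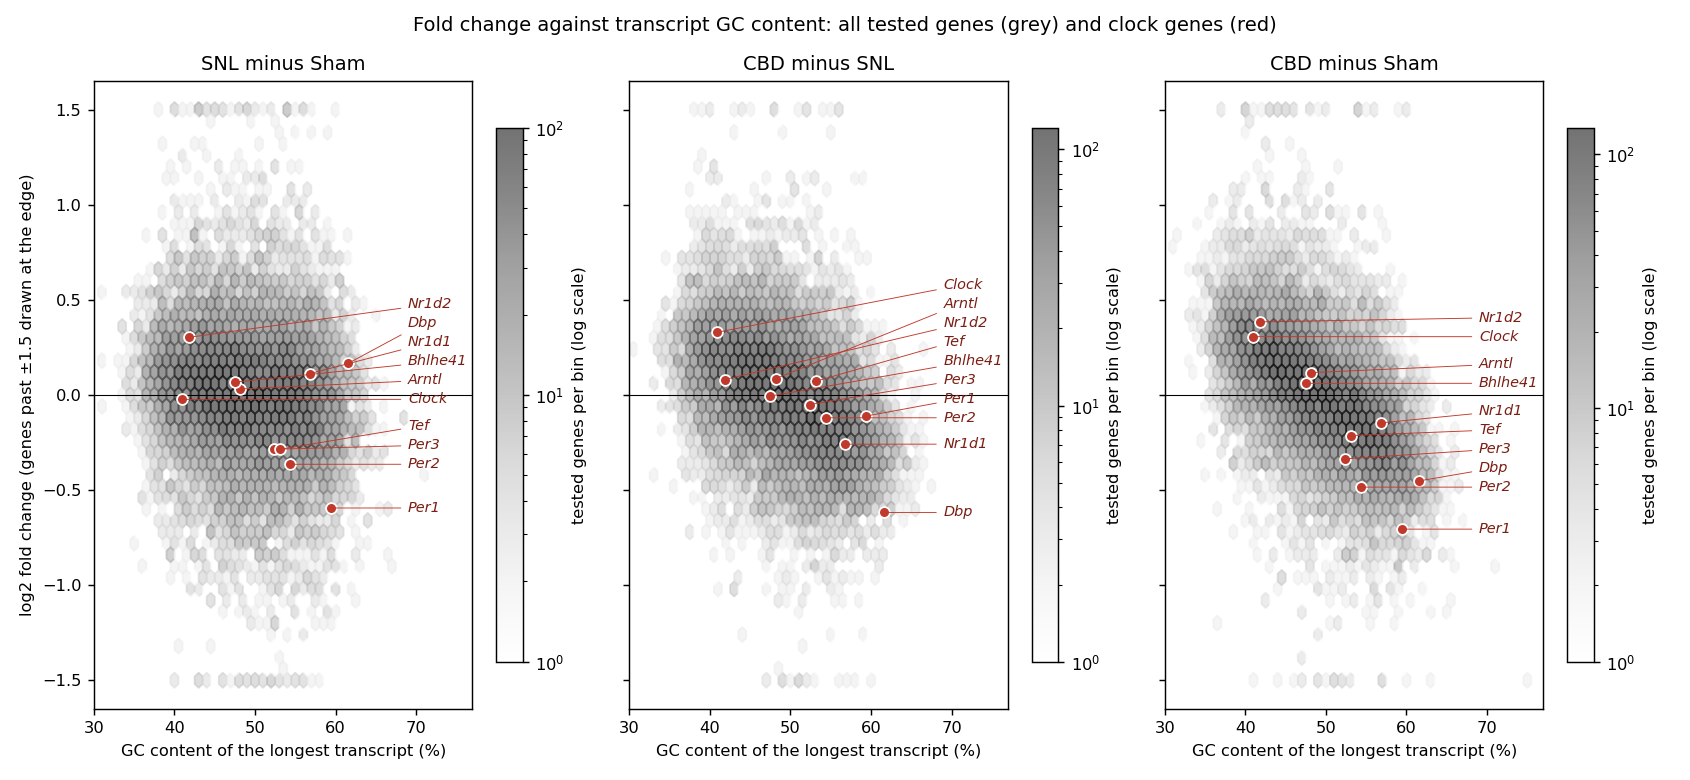
Log2 fold change (vertical axis) against GC content of the longest transcript in percent (horizontal axis) for the tested genes (grey bins, log colour scale) and the 10 clock genes (red, named), in 3 panels by comparison. In CBD minus Sham, Clock at 40.9% GC is at 0.31 and Nr1d2 at 41.8% GC at 0.38, while Per1 at 59.4% GC is at -0.71 and Dbp at 61.6% GC at -0.45.

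Both ligated groups combined were set against Sham in the same fit, which shares all its libraries with the comparisons above. Per1 had a log2 fold change of -0.65 (SE 0.15, edgeR unadjusted p = 0.00159, adjusted p = 0.170) and was lower in 6 of 6 ligated libraries than in any Sham library. Without Sham 1 it was -0.43 (edgeR adjusted p = 0.647), and without Sham 3 it was -0.78 (edgeR adjusted p = 0.0476). Per2 was at -0.42 (SE 0.11, edgeR adjusted p = 0.177), Per3 at -0.31 (SE 0.10, edgeR adjusted p = 0.211) and Tef at -0.25 (SE 0.08, edgeR adjusted p = 0.211). With edgeR 0 of 10 clock genes passed, against 0.0111% of all genes, and 3 of 10 (Per1, Per3 and Tef) had all ligated libraries below all Sham libraries, against 3.23%, and 0 of 10 above, against 2.6%. At an unadjusted p under 0.05, 4 of 10 were lower, against 9.04%, and 1 of 10 (Nr1d2) higher, against 6.34%. DESeq2 called Per1, Per2 and Tef (adjusted p = 0.0139, 0.0426 and 0.0398), 3 of 10 against 2.57% of all genes, and limma voom 0 of 10 against 0.239%. With offsets from the longest transcript Per1 was at -0.44, Per2 at -0.31, Per3 at -0.23 and Tef at -0.16, 4 of 10 lower at an unadjusted p under 0.05 against 6.58% of all genes and 0 of 10 higher against 5.15%.

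Most clock genes varied less between libraries of a group than the middle tested gene, with a median percentile of 25.1. That percentile was taken over tested genes of any abundance, while the clock genes averaged 24.7 CPM (Arntl) to 336 CPM (Tef). It was not matched for abundance, so it does not show that clock genes are steadier than genes of like level. The SD of log2 CPM around the group means was 0.06 for Tef, at the 0.90 percentile of all tested genes. For Bhlhe41, Per3, Clock, Nr1d1 and Per2 it lay between the 18.6 and 28.1 percentiles, and for Arntl, Nr1d2, Dbp and Per1 between the 38.3 and 57.4 percentiles. The ratio of the highest to the lowest of the 9 libraries was 2.36 for Per1 and 2.02 for Dbp. It was 1.65 for Per2, 1.59 for Nr1d2 and 1.54 for Per3. The median over all genes averaging 10 CPM or more was 1.52. Tef, Nr1d1, Arntl, Clock and Bhlhe41 lay below that median, with Bhlhe41 lowest at 1.22.

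Over the 9 libraries the Period genes and Tef moved together. All 45 pairs of clock genes were correlated on log2 CPM with exact two-sided permutation tests, and 6 pairs passed Benjamini-Hochberg adjustment by Pearson's r, all of them positive and all among Per1, Per2, Per3 and Tef. By Spearman's rho 0 of 45 passed. The permuted orders crossed groups, so these p-values include the differences between groups given above, and r within groups was not tested. The share of such pairs among all genes was not computed. Per1 and Per2 gave r = 0.96 (exact permutation p = 0.00011, adjusted p = 0.00496) and rho = 0.92 (exact permutation p = 0.00131, adjusted p = 0.0590). Without Sham 1 and CBD 3, the libraries farthest from the median of Per1, r was 0.91, and for deviations from the group means it was 0.87. Per2 and Per3 gave r = 0.89 (exact permutation p = 0.000659, adjusted p = 0.0148) and rho = 0.72 (exact permutation p = 0.0369, adjusted p = 0.207), with r = 0.65 without Sham 1 and Sham 2.

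Per2 and Tef gave r = 0.85 (exact permutation p = 0.00581, adjusted p = 0.0435) and rho = 0.53 (exact permutation p = 0.148, adjusted p = 0.511), but r was 0.41 without Sham 1 and Sham 2, so this relation rests on those libraries. Of the pairs of Dbp with these 4 genes, 0 passed, with r = 0.44 to Per1 (exact permutation p = 0.229), 0.43 to Per2 (exact permutation p = 0.240), 0.48 to Per3 (exact permutation p = 0.194) and 0.05 to Tef (exact permutation p = 0.911). For deviations from group means the values were 0.48, 0.29, 0.64 and 0.12, and no difference between pairs was tested. Per1 and Nr1d2 gave r = -0.79 (exact permutation p = 0.0115, adjusted p = 0.0657) and rho = -0.80 (exact permutation p = 0.0138, adjusted p = 0.124), and r = -0.56 without Sham 1 and CBD 3. Per2 and Nr1d2 gave r = -0.78 (exact permutation p = 0.0145, adjusted p = 0.0724) and rho = -0.83 (exact permutation p = 0.00827, adjusted p = 0.124), and r = -0.05 without Sham 1 and Sham 2. Dbp and Clock gave r = -0.84 (exact permutation p = 0.0117, adjusted p = 0.0657) and rho = -0.67 (exact permutation p = 0.0589, adjusted p = 0.294), and r = -0.09 without CBD 2 and CBD 3. Dbp and Arntl, which peak at different hours in tissues with a running clock, gave r = -0.54 (exact permutation p = 0.135, adjusted p = 0.380) and rho = -0.35 (exact permutation p = 0.359, adjusted p = 0.702), and r turned to 0.35 without CBD 2 and CBD 3.

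**Figure D4:**
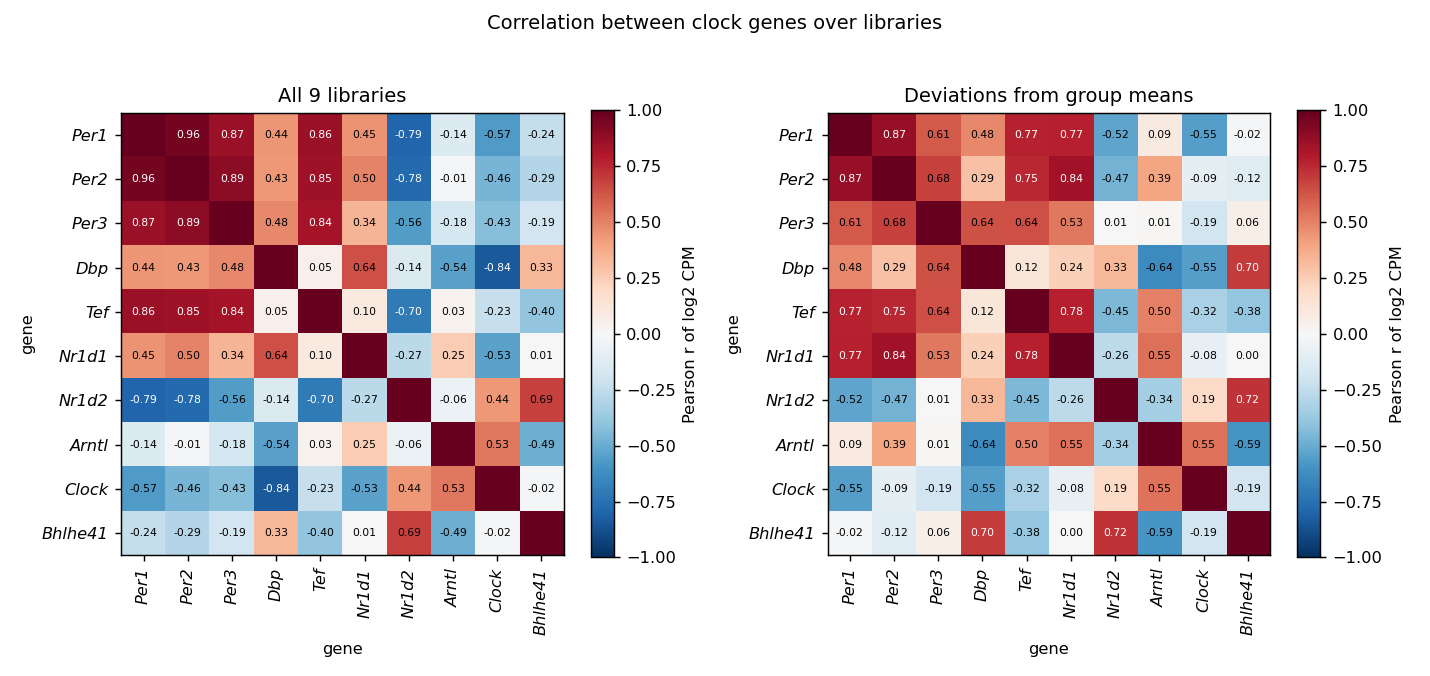
Pearson correlation of log2 CPM between each pair of clock genes (both axes), over all 9 libraries on the left and over deviations from group means on the right, on a colour scale from -1 (blue) to 1 (red). Per1, Per2, Per3 and Tef form a block of r from 0.84 to 0.96 on the left and from 0.61 to 0.87 on the right.

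As a description with no test, the genes whose pattern over the 9 libraries was most like that of a clock gene were taken from 11787 genes that averaged 5 CPM or more. Closest to Per1 were Cul9 at r = 0.99, and Dctn1, Zfp777, Zfp316 and Ttyh3 at 0.98, and 196 genes exceeded 0.9. These 5 genes, which are not clock members, were closer to Per1 than Per2 was, at r = 0.96. Closest to Dbp were Ckb and Metrn at 0.99, Tmbim6 and Olig1 at 0.97 and Gal3st1 at 0.96, and 109 genes exceeded 0.9. Closest to Arntl were Kcnma1 at 0.96, Lca5, Baz1b and Prickle1 at 0.94 and Sel1l3 at 0.92, and 12 genes exceeded 0.9. The 5 genes nearest Per1 lay between the 92.3 and 97.8 percentiles of GC content and Per1 itself at the 94.4. Those nearest Dbp lay between the 71.8 and 98.0 and Dbp at the 97.9, while those nearest Arntl lay between the 21.6 and 63.0 and Arntl at the 44.3.

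Of 20 other genes of the clock loop and its kinases, receptors and outputs, all 20 were tested, and 0 passed the adjusted edgeR threshold in any comparison. At an unadjusted p under 0.05, 2 were higher and 1 lower in SNL than in Sham (5.83% and 7.96% of all genes), 2 higher and 1 lower in CBD than in SNL (6.5% and 7.2%), and 1 higher and 1 lower in CBD than in Sham (7.41% and 8.87%). With 20 genes, these counts are near those shares. For both ligated groups against Sham, 3 of the 20 were higher and 2 lower (6.34% and 9.04% of all genes). DESeq2 called 1 of the 20, Rorb, in SNL against Sham (adjusted p = 0.0177), against 2.03% of all genes. In both ligated groups against Sham DESeq2 again called 1, Rorb (adjusted p = 0.0118), against 2.57%. Rorb, a nuclear receptor that activates through ROR elements, was at 20.8, 22.0 and 25.95 CPM in the Sham libraries, 36.4, 55.7 and 32.0 CPM in SNL and 41.6, 28.6 and 39.96 CPM in CBD. All 6 ligated libraries were above Sham (log2 fold change for SNL 0.85, SE 0.21, edgeR unadjusted p = 0.00248, adjusted p = 0.220), and with offsets the value was 0.89. Rora, its relative, was at 53.2, 62.1 and 84.8 CPM in the Sham libraries, 91.9, 227 and 84.0 CPM in SNL and 115, 88.8 and 124 CPM in CBD. Rora is also a thalamic marker, and the summed level of the 10 thalamus and habenula markers, Rora among them, was 432 to 582 CPM in the Sham libraries, 685 to 1724 CPM in SNL and 622 to 885 CPM in CBD, with SNL 2 highest for Rora, Rorb and the sum.

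Cry2, a repressor that partners the PER proteins, was at 149.7, 145 and 121 CPM in the Sham libraries, 114, 123 and 124 CPM in SNL and 110.2, 118 and 116 CPM in CBD. Its log2 fold change in CBD against Sham was -0.27 (SE 0.10, edgeR unadjusted p = 0.0242) and -0.11 with offsets. Btrc, a ubiquitin ligase subunit that targets PER proteins, was lower in SNL, at 58.6, 58.6 and 72.8 CPM, than in Sham, at 79.7, 76.1 and 77.2 CPM, and was at 81.6, 81.7 and 79.2 CPM in CBD (log2 fold change for CBD against SNL 0.35, SE 0.10, edgeR unadjusted p = 0.00642, and 0.15 with offsets). Nampt, an enzyme of NAD synthesis under clock control, was at 0.34 (SE 0.13, edgeR unadjusted p = 0.0279) in CBD against SNL, and at 0.14 with offsets. Ciart, a repressor of CLOCK and BMAL1, was at -0.38 (SE 0.15, edgeR unadjusted p = 0.0310) in the same comparison, and at -0.27 with offsets.

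Glucocorticoid targets and activity genes were also measured, since both inputs act on Per1. The summed level of 14 glucocorticoid targets, of which none was at 0, was 921, 1151 and 1032 CPM in the Sham libraries, 673, 716 and 648 CPM in SNL and 738, 615 and 597 CPM in CBD. Sgk1, a kinase induced by glucocorticoids, was at 170, 131 and 178 CPM in the Sham libraries, 41.6, 52.3 and 33.4 CPM in SNL and 84.2, 49.1 and 56.0 CPM in CBD. The summed level of 16 immediate early genes was 646, 596 and 425 CPM in the Sham libraries, 364, 441 and 439.6 CPM in SNL and 301, 419 and 463 CPM in CBD. The summed level of 10 markers of hippocampal neurons was 785 to 1332 CPM in the Sham libraries, 543 to 750 CPM in SNL and 586 to 1022 CPM in CBD, and that of 8 oligodendrocyte markers 8599 to 11644, 10434 to 14765 and 8138 to 9544 CPM. Of 8 endothelial markers, 8 were higher in SNL than in Sham. At an edgeR unadjusted p under 0.05, 6 were higher, against 5.83% of all genes, and DESeq2 called 4, against 2.03%. Other lists shifted too. At that unadjusted p, 10 of 10 thalamus and habenula markers and 2 of 8 oligodendrocyte markers were higher. Lower were 8 of 14 glucocorticoid targets, 5 of 10 hippocampal neuron markers and 7 of 16 immediate early genes, against 7.96% of all genes, and 1 of the 16 was higher. In CBD against SNL, 8 of 8 oligodendrocyte markers were lower, 6 of them at that unadjusted p, against 7.2% of all genes. Lower there were also 3 of 16 immediate early genes, 1 of 8 endothelial markers and 2 of 14 glucocorticoid targets. Of the 14, 5 were higher, against 6.5%. For thalamus and habenula and for hippocampal neurons, 0 of 10 markers passed in either direction. The summed level of the endothelial markers was 347 to 407 CPM in Sham, 461 to 616 CPM in SNL and 451 to 494 CPM in CBD. Mitochondrial genes took 3.20% to 4.56% of counts in Sham, 4.76% to 6.29% in SNL and 4.52% to 6.65% in CBD. The part of each in the clock gene levels was not tested. Without the 3 libraries that held hypothalamic transcripts, Per1 was at -0.81 and Dbp at -0.65 for CBD against Sham, beside -0.71 and -0.45 with all libraries. The CBD group is then CBD 2 and CBD 3, the closest pair of libraries over all genes and the lowest for Dbp. SNL 3 is then the only SNL library, so the values given further below for the SNL group in this setting rest on 1 library.

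Some counts are uncertain because genes share sequence. In GENCODE M21, exons of Nr1d1 overlap those of Thra on the opposite strand by 263 bases, those of Dbp overlap Sphk2 by 539 and those of Bhlhe41 overlap Gm43909 by 1280. Whether the counting used strand is not given in the sources used here, so reads of these pairs may not be separable. Expected counts of Dbp, Nr1d1 and Bhlhe41 were not whole numbers in 9 of 9 libraries. Thra was at 468 to 883 CPM and Sphk2 at 20.3 to 30.95 CPM, beside 43.0 to 86.9 CPM for Dbp.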

How the data were processed

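Hippocampal RNA of 9 libraries was sequenced, and the authors deposited a gene table of expected counts, for which RSEM and build GRCm39 are named per the submitters' processing notes. Its version and strand setting are not given in the sources. Of the values, 75.2% to 81.7% per library were whole numbers, and all were rounded. CPM used TMM-scaled totals. The main test was edgeR 4.0.16's quasi-likelihood F test (R 4.3.3) after filterByExpr, over all 9 libraries with 6 residual degrees of freedom and Benjamini-Hochberg adjustment over 17967 genes at 0.05. The common biological coefficient of variation was 0.192, and totals of 16972620 to 20470546 counts set the counting precision. The scripts were tested on simulated data.

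The alternatives were DESeq2 size factors, no filter, a filter of 1 CPM in 3 libraries, DESeq2 1.42.0, limma 3.58.1 voom with sample weights, only the groups compared, a replicate block, each library left out, and leaving out the 3 libraries with hypothalamic transcripts. Added after seeing the data were smooth offsets (mgcv 1.9.3) for GC content and length of GENCODE M21 transcripts. Replicate numbers did not pair the samples. No pair of libraries agreed within counting noise (chi-square per gene of 6.61 or more).

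The members, the lists and the tests were chosen with earlier results of these data known. All 10 members are described. Of the 20 other clock genes, counts are given with the 6 smallest unadjusted p-values in any contrast, and for Per1, Dbp and Arntl the 5 most alike genes of at least 5 CPM by Pearson's r of log2 CPM (prior count 2). Of the marker lists only sums and counts are given, with Sgk1 and Pmch as anchors.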

Additional observations from a re-analysis of the deposited data

How the results depend on the processing

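Under the alternatives, 705 of 750 values of the clock genes kept their direction and side of the threshold, 15 newly passed it and 30 changed direction, in 14 of 40 pairs of gene and comparison. In the main fit 0 of 10 clock genes passed in any comparison, so none could lose the threshold, and the 705 values all stayed short of it. Counts of genes past the threshold for SNL against Sham, CBD against SNL, CBD against Sham and both ligated groups against Sham were 0, 0, 0 and 2. They were 253, 1, 56 and 290 with no filter, 365, 157, 384 and 461 with DESeq2, 1, 1132, 1051 and 43 with limma voom, and 1, 2, 20 and 11 without the 3 libraries with hypothalamic transcripts, where SNL 3 is the only SNL library and is assumed to vary like the other groups. With only the groups compared CBD against Sham gave 1, with either offset the last gave 1, and with the replicate block it gave 0. Leaving out 1 library gave 0 to 8, 0 to 2, 0 to 17 and 0 to 291, the highest without CBD 1 in the first 3 and without Sham 3 in the last; the cause was not tested. Per1 in both ligated groups passed with no filter (edgeR adjusted p = 0.0176) and without Sham 3 (0.0476; 0.647 without Sham 1). Same-numbered libraries deviated with r from -0.27 to 0.19, 2 of 9 pairs over 0.1, and the replicate block brought no clock gene past the threshold. Without the 3 libraries, and so with 1 SNL library, log2 fold changes turned to -0.067 for Dbp and -0.019 for Bhlhe41 (SNL against Sham), 0.12 for Per3 and 0.024 for Bhlhe41 (CBD against SNL) and -0.0073 for Bhlhe41 (both ligated groups). With the longest-transcript offsets they turned to 0.018 for Clock (SNL against Sham), 0.029 for Per1 and -0.094 for Nr1d2 (CBD against SNL), 0.063 for Nr1d1 and -0.017 for Bhlhe41 (CBD against Sham), and 0.061 for Dbp and 0.11 for Nr1d1 (both ligated groups). Offsets from the mean GC content and median length over all transcripts of a gene were tried first, and the longest transcript was chosen after their values were seen, because short fragment models set the length of some genes; with them Arntl turned to -0.023 (CBD against SNL) and Nr1d1 to 0.034 (CBD against Sham) and 0.096 (both ligated groups), and Tef in CBD against SNL was at 0.24 (edgeR unadjusted p = 0.0345) instead of 0.10. Leaving out 1 library gave ranges through 0 of -0.018 to 0.11 for Arntl and -0.088 to 0.036 for Clock (SNL against Sham), -0.24 to 0.0017 for Per1, -0.14 to 0.018 for Per3, -0.028 to 0.15 for Nr1d2, -0.029 to 0.21 for Arntl and -0.081 to 0.055 for Bhlhe41 (CBD against SNL), -0.0066 to 0.16 for Bhlhe41 (CBD against Sham) and -0.070 to 0.080 for Nr1d1 (both ligated groups).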
